A study of Homo sapiens with 4 samples.

Results

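The 10 genes described here encode carriers that move amino acids across the plasma membrane, except SLC3A2, which brings some of these carriers to it. SLC3A2 is counted below among the carriers. The 10 genes were chosen by name from the 32955 genes of the expression table. They are SLC7A11, SLC7A5, SLC3A2, SLC7A1, SLC1A5, SLC1A4, SLC38A1, SLC38A2, SLC6A9 and SLC43A1, and all 10 were found. They were measured by RNA-seq in 4 libraries of MDA-MB-231, an estrogen receptor-negative human line from a breast cancer. Cells in 2 libraries had received mimic NC, an oligonucleotide used as the control, by transfection, and cells in the other 2 with miR-217 mimic, a synthetic RNA that acts as the microRNA miR-217. The libraries of each group are numbered 1 and 2, and neither the meaning of this number nor separate cultures are stated in the labels. The p-values given here therefore measure only the spread between these libraries, which may be technical. The numbers were compared without a term for the mimic, so that spread includes any difference between mimic NC and miR-217 mimic. The groups were compared without a term for the number, so there the spread includes the difference between the numbers. All cells were of 1 line that received an oligonucleotide, RNA was isolated with TRIzol, and untransfected cells were not analysed here.

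Amino acid carriers set which amino acids a cell can take up or exchange, and they work by different means. Some are exchangers that release one amino acid for another, some use the sodium gradient to concentrate their substrate, and some work by facilitated diffusion. SLC7A5 and SLC7A11 are light chains that carry the substrate, and they reach the cell surface bound to the heavy chain SLC3A2, also called CD98 or 4F2hc. When amino acids are scarce or other stresses act on translation, the transcription factor ATF4 is made in larger amounts and raises many genes for amino acid uptake and synthesis, several of these carriers among them. In breast cancer cells, SLC7A11 is known for supplying cystine for glutathione, and SLC1A5 for glutamine uptake.

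The table gave RPKM (reads on a gene relative to its exon length and to the library's reads on genes). The reads counted on genes numbered 57933183 and 47374957 in mimic NC replicates 1 and 2, and 53356283 and 32635814 in miR-217 mimic replicates 1 and 2. Both libraries numbered 2 were thus shallower than both numbered 1, and mitochondrial genes took 3.97% and 4.78% of their reads, compared with 3.56% and 3.58%. The part of depth and of mitochondrial share in the differences below was not tested. VIM, CD44 and AXL, which mark this line, lay between 6.23 and 36.9 RPKM, and ESR1 and CDH1, which it lacks, lay between 0.0294 and 0.433. ERBB2 (2.27 to 3.23 RPKM) and EPCAM (3.90 to 7.41) were present at a low level. Markers of other cells were low but highest in miR-217 mimic replicate 2. PTPRC and CD3E, of leukocytes, were at 1.25 and 0.733 RPKM there and at most at 0.504 and 0.329 in the other libraries, and PECAM1, of endothelium, was at 0.138 there and at most at 0.0734 in the others. Their part in the differences that use this library was not tested, and ALB had no value in the table.

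Per length, SLC7A5 was the most abundant of the 10 carriers, with a mean of 88.0 RPKM over the 4 libraries, and SLC43A1 was the least abundant at 0.506. SLC3A2 (68.1), SLC38A2 (47.5), SLC1A5 (31.9) and SLC38A1 (27.5) followed SLC7A5, and then came SLC7A11 (8.90), SLC7A1 (4.22), SLC6A9 (2.34) and SLC1A4 (2.23). The ranges over the 4 libraries overlapped between neighbours in this order, except that SLC38A1 lay above SLC7A11 and SLC1A4 lay above SLC43A1 without overlap. Within single libraries the order was nearly fixed, and only 3 of the 9 neighbouring pairs changed places, each of them in 1 library of the 4. The 10 carriers summed to 211 and 227 RPKM in the libraries numbered 1 and to 358 and 329 in those numbered 2. The plot of RPKM by gene shows both sources of spread, the wide range between carriers and the step between the numbers.

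**Figure D1:**
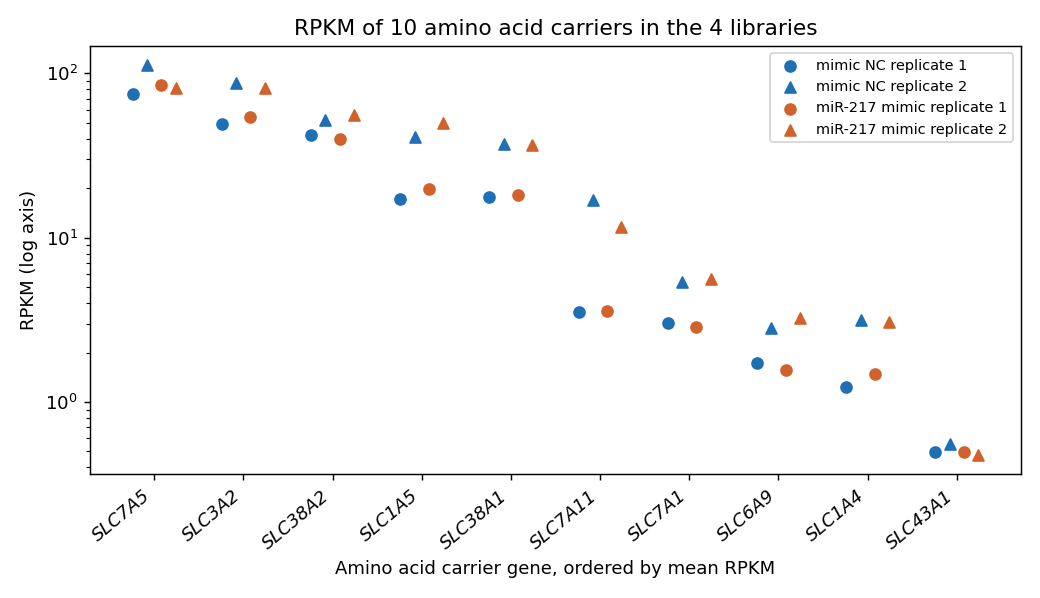
RPKM (log axis) of the 10 carriers, ordered by mean, in each of the 4 libraries, with circles for number 1, triangles for number 2, blue for mimic NC and orange for miR-217 mimic. The triangles lie above the circles of both groups in 8 of the 10 genes, and the exceptions are SLC7A5 and SLC43A1.

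Most of the carriers were higher in the libraries numbered 2 than in those numbered 1, in both transfection groups. Of the 9 carriers with a mean of at least 1 RPKM, which were tested, 7 were higher at an adjusted p under 0.05 (limma on log2(RPKM + 1), Benjamini-Hochberg over 13871 genes), and 0 were lower. Among all genes tested, 3.34% were higher and 3.71% were lower by the same rule. At an unadjusted p under 0.05 all but SLC7A5 passed, 8 of 9, compared with 30.2% of all genes in either direction. In these same 8 carriers both libraries numbered 2 lay above both numbered 1, which held for 26.9% of all genes. The median difference over the 9 carriers was 0.72 on the log2 scale, compared with -0.04 over all genes tested. The carriers were chosen with earlier results of these libraries known. These counts and medians therefore describe this choice of genes and do not test it against all genes. The median difference of the 9 carriers lay between 0.73 and 0.76 whichever library was left out. The comparison is one of library numbers and not of a treatment, and less RNA per cell and fewer cells that make it cannot be told apart in bulk RNA.

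SLC7A11 (chromosome 4, 138164097 to 138242349, minus strand), the light chain that exchanges extracellular cystine for glutamate, differed most. Its RPKM was 3.51 in mimic NC replicate 1 and 16.9 in replicate 2, and 3.58 in miR-217 mimic replicate 1 and 11.6 in replicate 2. These values rested on 1963, 7719, 1842 and 3651 reads in that order. Both libraries numbered 1 were nearly equal, and both numbered 2 were far above them without overlap. The mean was 3.55 ± 0.0468 RPKM in number 1 and 14.2 ± 3.74 in number 2 (SD, n = 2 each), a ratio of 4.02. The ratio was 4.81 within mimic NC and 3.24 within miR-217 mimic. The log2 difference was 1.72 with an SE of 0.18 (limma, adjusted p = 0.0189), and it was the eighth from the highest among the 13871 genes.

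SLC3A2 (chromosome 11, 62856102 to 62888875, plus strand), the heavy chain, was at 49.3 and 87.4 RPKM in mimic NC replicates 1 and 2 and at 54.3 and 81.2 in miR-217 mimic replicates 1 and 2. It was higher in both libraries numbered 2 without overlap, by 0.69 on the log2 scale (SE 0.09, limma adjusted p = 0.0274), and the ratio of the means was 1.63. SLC7A5 (chromosome 16, 87830023 to 87869488, minus strand) encodes LAT1, the light chain that brings in leucine and other large neutral amino acids in exchange for glutamine. It was at 74.5 and 112 RPKM in mimic NC replicates 1 and 2 and at 84.8 and 80.9 in miR-217 mimic replicates 1 and 2. Only mimic NC replicate 2 stood above the rest, and the numbers overlapped. The log2 difference between numbers was 0.58 within mimic NC and -0.07 within miR-217 mimic, and 0.26 in the fit (95% interval -0.19 to 0.70, limma adjusted p = 0.364). Without miR-217 mimic replicate 2 the difference of SLC7A5 was 0.48 (adjusted p = 0.0390), and without mimic NC replicate 2 it was 0.03. Over all alternatives run its adjusted p lay between 0.0390 and 0.861.

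The light chains of SLC3A2 thus made up different shares of their sum at the 2 numbers. SLC7A11 made up 3.81% and 3.51% of the summed RPKM of the 6 known partners of SLC3A2 (SLC7A5, SLC7A6, SLC7A7, SLC7A8, SLC7A10 and SLC7A11) in the libraries numbered 1, and 12.2% and 11.2% in those numbered 2. The ratio of SLC7A5 to SLC7A11 went with this from 21.2 and 23.7 in number 1 to 6.61 and 6.98 in number 2. SLC7A5 itself remained the main light chain in each library, at 78.3% to 83.3% of the sum. SLC7A6, the light chain of the y+LAT2 exchanger, was at 14.0 and 9.94 RPKM in mimic NC and at 13.1 and 10.5 in miR-217 mimic, and its log2 difference of -0.37 missed the threshold (limma adjusted p = 0.0541). The summed light chains were 1.87 times SLC3A2 in both libraries numbered 1, and 1.59 and 1.27 times in mimic NC and miR-217 mimic replicate 2. With the sum over SLC7A5 and SLC7A11 alone, the ratio was 1.58 and 1.47 in mimic NC replicates 1 and 2. It was 1.63 and 1.14 in miR-217 mimic replicates 1 and 2, so the fall within mimic NC was smaller by this sum. These ratios are of mRNA levels per length and were described without a test.

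**Figure D2:**
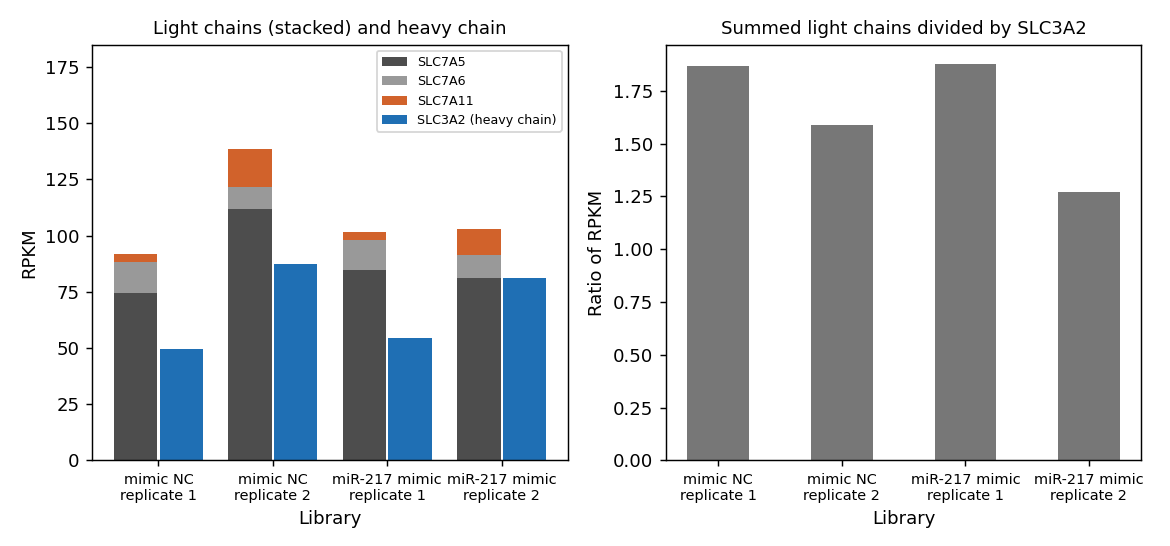
Left, RPKM of the light chains SLC7A5, SLC7A6 and SLC7A11 (stacked) beside that of the heavy chain SLC3A2 in each library; right, the summed RPKM of the 6 light chains divided by that of SLC3A2. SLC7A11 takes a larger share of the stack in the libraries numbered 2, and the ratio falls from 1.87 in both libraries numbered 1 to 1.59 and 1.27.

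The sodium-dependent carriers SLC1A5, SLC38A1, SLC1A4 and SLC38A2, which move neutral amino acids, were each higher in both libraries numbered 2. SLC1A5 (chromosome 19, 46774883 to 46788594, minus strand), or ASCT2, exchanges glutamine for other neutral amino acids, and was at 17.2 and 40.9 RPKM in mimic NC replicates 1 and 2 and at 19.6 and 49.7 in miR-217 mimic replicates 1 and 2. Its log2 difference was 1.25 (SE 0.12, limma adjusted p = 0.0181), with a ratio of 2.37 within mimic NC and 2.53 within miR-217 mimic. SLC38A1 (chromosome 12, 46183063 to 46270017, minus strand), or SNAT1, takes up glutamine and alanine with sodium, and was at 17.6 and 37.4 RPKM in mimic NC and at 18.1 and 36.7 in miR-217 mimic. The values of SLC38A1 were nearly the same in both groups at each number, and its difference of 1.01 (SE 0.07, limma adjusted p = 0.0112) had the smallest adjusted p of the carriers. SLC1A4 (chromosome 2, 64988477 to 65023865, plus strand), or ASCT1, which exchanges alanine, serine, cysteine and threonine, was low at 1.23 and 3.14 RPKM in mimic NC and 1.48 and 3.07 in miR-217 mimic. It rested on 494 to 1032 reads, and it was higher in number 2 by 0.80 (SE 0.09, limma adjusted p = 0.0239), which the pseudocount of 1 understates against its ratio of 2.29. SLC38A2 (chromosome 12, 46358189 to 46372867, minus strand), or SNAT2, known for its induction when amino acids are withheld, was at 42.4 and 51.9 RPKM in mimic NC and at 39.8 and 56.1 in miR-217 mimic. The numbers did not overlap for SLC38A2 either, but its difference of 0.38 (SE 0.08) did not pass (limma adjusted p = 0.0556, with 0.0154 to 0.355 over the alternatives).

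SLC7A1 (chromosome 13, 29509410 to 29595688, minus strand), or CAT1, the carrier of arginine and lysine, was at 3.02 and 5.39 RPKM in mimic NC replicates 1 and 2 and at 2.85 and 5.61 in miR-217 mimic replicates 1 and 2. It was higher in number 2 without overlap, by 0.72 (SE 0.08, limma adjusted p = 0.0207). SLC6A9 (chromosome 1, 43991500 to 44031467, minus strand), or GLYT1, which takes up glycine with sodium and chloride, was at 1.74 and 2.81 RPKM in mimic NC and at 1.56 and 3.23 in miR-217 mimic. It too was higher in number 2, by 0.60 (SE 0.10, limma adjusted p = 0.0381), on 430 to 687 reads a library. SLC43A1 (chromosome 11, 57484534 to 57515786, minus strand), or LAT3, which passes large neutral amino acids without sodium, fell under 1 RPKM and was not tested. It was at 0.498 and 0.556 RPKM in mimic NC and at 0.493 and 0.477 in miR-217 mimic, on 55 to 102 reads, and the numbers overlapped.

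Leaving out either library numbered 1 changed the calls more than the differences. Without mimic NC replicate 1 or without miR-217 mimic replicate 1 it was 0 of 9, in fits that called 9 and 14 genes in all and that take the lone library to vary like the pair, while the median difference of the 9 carriers was 0.73 and 0.76 and that of SLC7A11 was 1.71 and 1.73.

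**Figure D3:**
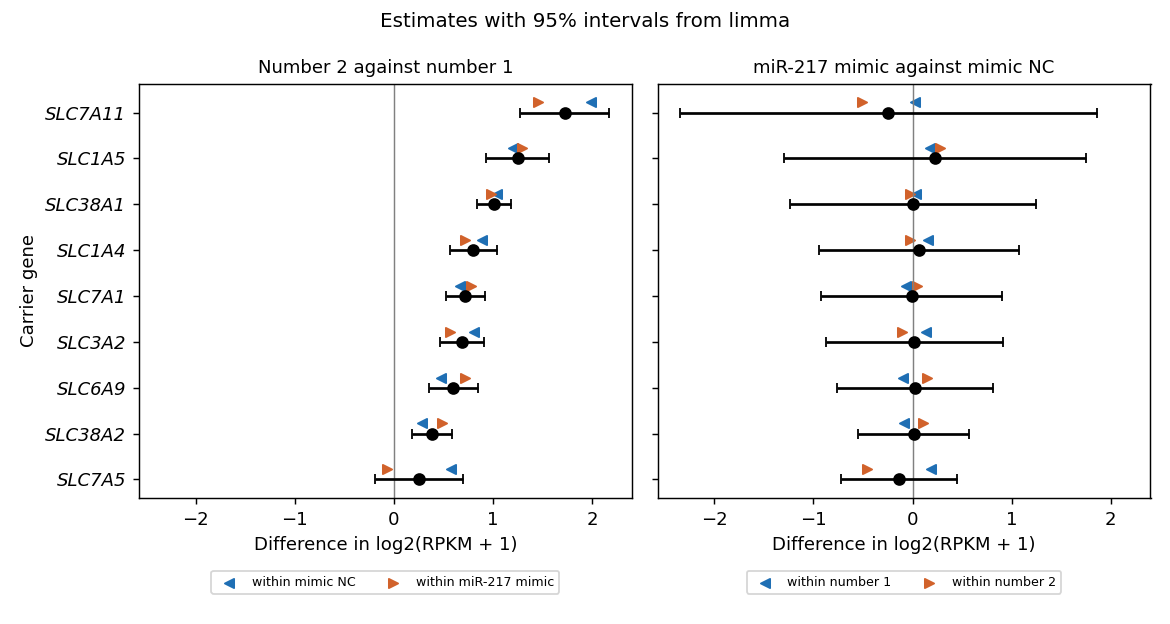
Difference in log2(RPKM + 1) of the 9 tested carriers with 95% intervals from limma (black), for number 2 against number 1 (left) and miR-217 mimic against mimic NC (right), with triangles for the difference within each group or each number. On the left 8 intervals lie above 0 and that of SLC7A5 crosses it, and on the right all 9 cross 0.

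Carriers outside the 10 were compared as 3 lists. Of 29 other plasma membrane carriers, 24 were in the table and 6 passed the filter, and 0 of these 6 differed between the numbers at an adjusted p under 0.05 in limma. At an unadjusted p under 0.05 SLC38A5 was higher and SLC7A6 was lower, limma voom on recovered reads called SLC7A6 alone, and the median of the 6 was -0.15. Of the lysosomal carriers 0 of 5 tested were called, with 1 at an unadjusted p under 0.05, 0 by limma voom and a median of 0.04. Of the mitochondrial carriers 0 of 8 were higher and 1 was lower at an adjusted p under 0.05, in limma and in limma voom. At an unadjusted p there was also SLC25A38, a glycine carrier, with a difference of 0.33 that did not pass (limma adjusted p = 0.143). The shares over all genes were 3.34% higher and 3.71% lower at the adjusted and 30.2% at the unadjusted threshold, and 2 of 6, 1 of 5 and 2 of 8 genes of the 3 lists passed the latter. The mitochondrial carrier called lower was SLC25A12, the aspartate and glutamate carrier of the inner membrane, at 4.22 and 3.06 RPKM in mimic NC and 4.44 and 2.89 in miR-217 mimic (log2 difference -0.42, SE 0.08, limma adjusted p = 0.0465). A list of 22 genes of the amino acid response, such as ATF4, ASNS and CHAC1, held 21 tested genes, with a median difference of 1.13. At an adjusted p under 0.05 in limma, 16 of these were higher in number 2 and 0 were lower. The difference was below 0 in 2 of the 21, and 1 gene was lower at an unadjusted p under 0.05. The 10 carriers and this list were chosen with earlier results of these libraries known, and the counts describe them only.

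**Figure D4:**
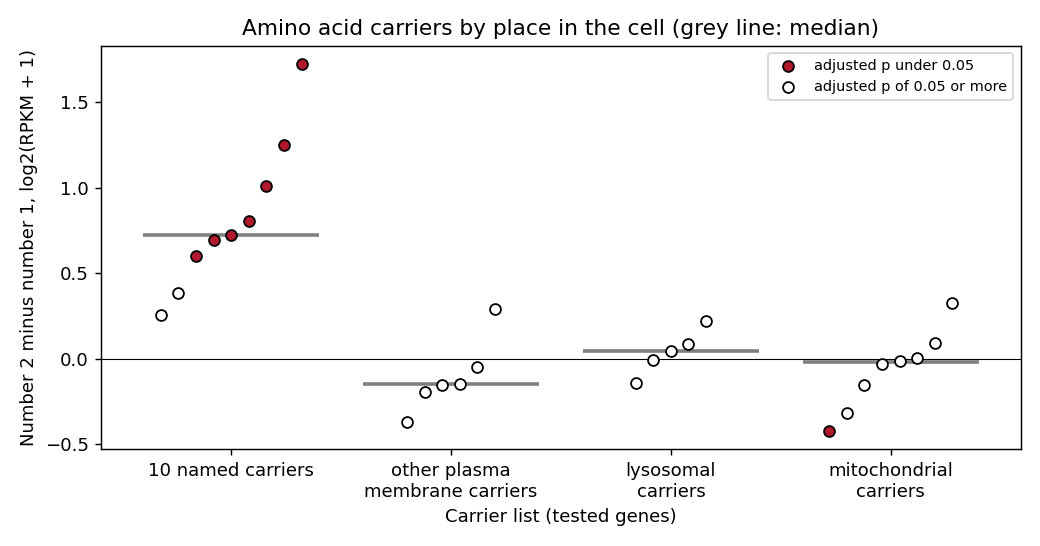
Difference in log2(RPKM + 1) between number 2 and number 1 for each tested gene of 4 carrier lists, filled where the limma adjusted p is under 0.05, with a grey line at the list's median. The 9 tested carriers of the 10 lie at 0.26 to 1.72 with a median of 0.72, and the medians of the other lists lie between -0.15 and 0.04.

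The promoters of the carriers were searched for TGATGNAA (TTNCATCA on the opposite strand), the composite element that ATF4 binds with a C/EBP partner. RefSeq windows of 300 bases, from 250 before a start site to 50 after it (GRCh38.p14), were found for 9 of the 10 genes, not for SLC7A11, and some genes had several. The letters were in at least 1 window of 5 of these 9 genes, compared with 3.62% of all 35116 windows and 2.48% of 8350 tested genes with a window. The carriers were chosen with earlier results of these libraries known, and several are known to be raised by ATF4. The count therefore describes this choice of genes and is no test. The stretches around the 5 matches are printed 5′ to 3′ on the strand of the gene, with the match in capitals.
SLC1A5: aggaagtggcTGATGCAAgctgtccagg
SLC38A1: cagacccgaaTGATGAAAagggatcagc
SLC7A1: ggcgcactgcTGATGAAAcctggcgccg
SLC1A4: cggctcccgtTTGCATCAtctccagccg
SLC3A2: gcaggactccTTACATCAgctcc
The SLC1A5 stretch lies at chr19:46784894-46784921, the SLC38A1 stretch at chr12:46266503-46266530 and the SLC7A1 stretch at chr13:29595664-29595691, all on the minus strand. The SLC1A4 stretch at chr2:64989382-64989409 and the SLC3A2 stretch at chr11:62881726-62881748, both on the plus strand, hold the element on the opposite strand. The start sites of these windows lay inside the gene's span for SLC1A5, SLC38A1, SLC1A4 and SLC3A2, and at its outer end for SLC7A1. No match was found in the windows of SLC7A5, SLC38A2, SLC6A9 and SLC43A1. The 5 genes with a match were called higher in number 2, and so was SLC6A9 without a match. A match of letters is not a bound site, binding was not measured, and the part of the element in the differences was not tested.

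A pair of further elements was searched on both strands in the same windows. The E-box CACGTG, which MYC and related factors bind and which reads the same on both strands, was in 3 of the 9 genes (SLC7A5, SLC1A5 and SLC43A1), compared with 7.26% of all windows and 13.1% of tested genes. TGACNNNGC, the core of the antioxidant response element, was in 4 of the 9 (SLC3A2, SLC7A1, SLC7A5 and SLC1A5), compared with 13.3% of windows and 19.7% of tested genes. None of the matches to these 3 motifs overlapped another.

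The study's own comparison asks which genes differ with miR-217. Of the 9 tested carriers, 0 differed between miR-217 mimic and mimic NC at an adjusted p under 0.05 and 0 at an unadjusted p under 0.05 (limma), and limma voom on recovered reads also called 0. Among all 13871 genes tested 0% were called at the adjusted and 1.19% at the unadjusted threshold. The paper reported upregulated and downregulated genes for this contrast, and its main text names no test or threshold for them. The shares given here come from another procedure and do not measure that result. The groups did not overlap in 23.2% of all genes and in 0 of the 9 carriers. The median difference was 0.01 on the log2 scale, compared with -0.02 over all genes. In the other plasma membrane, lysosomal, mitochondrial and amino acid response lists, 0 of 6, 0 of 5, 0 of 8 and 0 of 21 tested genes passed either threshold in limma, and limma voom called 0 of all genes at the adjusted threshold and 82 at the unadjusted one.

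SLC7A11 and SLC7A5 had the largest falls in value between single libraries, and both were limited to number 2. With miR-217 mimic, RPKM of SLC7A11 differed by 1.89% in number 1 and by -31.3% in number 2, and the log2 difference in the fit was -0.24 (95% interval -2.35 to 1.86). RPKM of SLC7A5 differed by 13.9% in number 1 and by -27.5% in number 2, and its difference was -0.14 (-0.72 to 0.45). SLC1A5 was higher at both numbers, by 13.8% and 21.3%, with a difference of 0.22 (-1.30 to 1.75). The intervals are wide because each group holds 1 library of each number, and they include changes of more than 2-fold in either direction for SLC7A11, SLC1A5 and SLC38A1 (-1.24 to 1.25). The narrowest was that of SLC38A2 (-0.55 to 0.57). The 6 tested carriers other than SLC7A11, SLC7A5 and SLC1A5 had differences of -0.01 to 0.07, and their differences within a number lay between -0.11 and 0.15. SLC43A1, which was not tested, had both miR-217 mimic values below both mimic NC values, with differences of -1.0% in number 1 and -14.2% in number 2. With 2 libraries a group, the smallest two-sided p of an exact permutation test is 0.333.

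MicroRNAs lower their targets mainly by pairing of the seed, bases 2 to 8, with the 3′UTR. The mature miR-217-5p (RefSeq, GRCh38.p14, chr2:55983020-55983042, minus strand) is printed first, with its seed in capitals. Below it are the 3 places in the carriers that pair with the whole seed, with the paired letters and any A that follows them in capitals.
miR-217-5p: uACUGCAUcaggaacugauugga
SLC38A2: tgggtttctcATGCAGTAagctttataa
SLC38A2: cattttcaaaATGCAGTAatcaaaatgt
SLC7A11: gaaagtgaatATGCAGTtattctatga
The sites of SLC38A2 lie at chr12:46359889-46359896 and chr12:46358414-46358421 (minus strand), or positions 1215 and 2690 of a 3′UTR of 2922 bases, the longest in GENCODE 29 on GRCh38. The site of SLC7A11 lies at chr4:138171748-138171754 (minus strand), at position 202 of 7859 bases. In all, 2 of the 10 carriers held ATGCAGT, compared with 14.5% of 9913 tested genes with a 3′UTR. With the weaker form TGCAGTA, which also occurs in SLC7A11 and SLC1A4, 3 of the 10 held a site, compared with 21.7%. SLC38A2, with sites of 8 letters, differed by 0.01 between the groups (95% interval -0.55 to 0.57), and SLC1A4 by 0.07. SLC7A11, with 3 sites in all, had the lowest difference of the 9 carriers, -0.24 (95% interval -2.35 to 1.86). In number 1 it was 1.89% higher with miR-217 mimic, and a part of the sites was not tested.

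Several carriers share exon bases with other genes, and whether the counting used strand is not given in the sources used here. SLC7A11 shares 865 bases, or 8.97% of its length, with the antisense gene SLC7A11-AS1, which was at 1.11 and 4.84 RPKM in mimic NC replicates 1 and 2 and at 1.05 and 3.72 in miR-217 mimic replicates 1 and 2. The antisense gene thus followed SLC7A11, and its reads were 18.3% to 20.5% of those of SLC7A11. SLC1A5 shares 780 bases (23.4%) with CTB-147N14.6, whose reads were 12.1% to 14.2% of its own and which was at 6.56 and 15.1 RPKM in mimic NC and at 7.55 and 16.3 in miR-217 mimic. SLC6A9 shares 404 bases (7.83%) with CCDC24, whose reads were 33.7% to 104% of its own. CCDC24 went the other way, from 541 to 370 reads in mimic NC and from 439 to 183 in miR-217 mimic, and how far these overlaps bear on the values of the carriers was not tested. SLC7A5 has near-identical copies, SLC7A5P1 and SLC7A5P2, which held 14 to 32 and 110 to 237 reads, compared with 12535 to 25096 on SLC7A5.

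The genes whose profile over the 4 libraries was nearest to that of SLC7A11, by Euclidean distance of log2(RPKM + 1) centred on each gene's mean, were RP11-495P10.9 (0.12), ALDH1L2 (0.22) and CHAC1 (0.33). ALDH1L2, a mitochondrial folate enzyme, was at 4.39 and 17.8 RPKM in mimic NC and at 4.76 and 15.1 in miR-217 mimic. CHAC1, an enzyme that degrades glutathione, was at 0.369 and 4.19 RPKM and at 0.428 and 3.93. RP11-495P10.9 was listed at 0 in mimic NC replicate 1, and at 3.33, 0.132 and 1.94 RPKM in the others. The pseudocount of 1 shrinks the steps of low genes, so the nearness of CHAC1 and RP11-495P10.9 depends in part on it. The ratio of number 2 to number 1 was 11.4 within mimic NC and 9.18 within miR-217 mimic for CHAC1. For SLC7A11 it was 4.81 and 3.24. The genes nearest to SLC7A5 were PFN1P6 (0.02), PKIG (0.05) and SDHAF1 (0.06), each highest in mimic NC replicate 2. PKIG, an inhibitor of protein kinase A, was at 3.76 and 5.89 RPKM in mimic NC and at 4.16 and 4.03 in miR-217 mimic.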

How the data were processed

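RNA-seq was done on 4 libraries, grouped by the sample labels, and the columns were matched to samples by name. The authors deposited RPKM for 32955 genes with exon coordinates. The submitters' processing notes name Trimmomatic 0.36, featureCounts, Subread 1.5.1, edgeR 3.12.1 and hg38, and the aligner and annotation are not given in the sources used here. RPKM was multiplied by gene length and divided by the smallest nonzero product of its library, which was taken as 1 read. By this, 100% of nonzero values gave whole reads to within 0.01, and these were used as reads per gene. The library depths given are sums of these reads. Library depth (32635814 to 57933183 reads on genes) leaves the lowest carrier with 55 to 102 reads a library. Differences were tested with limma 3.58.1 in R 4.3.3 (lmFit, eBayes with trend, two-sided) on log2(RPKM + 1), which understates the change of low genes. The fits covered 13871 genes with a mean of at least 1 RPKM. The comparison of groups had no replicate term, and the comparison of numbers had no mimic term. P-values were adjusted by Benjamini-Hochberg. Alternatives were to omit the filter or set it at a mean of 5 RPKM, a pseudocount of 0.1, centring on medians, limma voom on recovered reads, an unmoderated variance, a term for the replicate block or the mimic, and each library left out in turn.

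Named were all 10 carriers, up to 5 called genes per direction of the other carrier lists, light chains, partners, and the 3 genes with the nearest profile to SLC7A11 and SLC7A5. SLC38A5, 3 response genes and overlapping genes were named after their values were seen. The members and lists were chosen with earlier results of these data known. Motif and site searches and plots used Python 3.11.15 and matplotlib 3.10.9. The fit was tested on simulated reads in which 200 genes were changed 2-fold in the contrast fitted. The simulated libraries held no further difference, such as the step between the numbers. The simulation therefore does not show how the comparison of groups performs in these data.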

Additional observations from a re-analysis of the deposited data

How the results depend on the processing

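The 9 tested carriers were above 0 for number 2 against number 1 under all alternatives run. The count of 7 at an adjusted p under 0.05 was 0 with no filter (3 of 32955 genes called) and with no moderation of the variance (0 of 13871), the latter leaving each gene its own spread on 2 degrees of freedom. It was 5 of 6 at a mean of at least 5 RPKM, 8 with limma voom (2262 genes called, compared with 977), and 0 to 9 when 1 library was left out. Of all genes, 9 were then called without mimic NC replicate 1, 14 without miR-217 mimic replicate 1, 3917 without mimic NC replicate 2 and 1745 without miR-217 mimic replicate 2. At an unadjusted p the count of 8 was 5 of 6 at a mean of at least 5 RPKM and 7 to 9 when 1 library was left out. The count of 0 for the other plasma membrane carriers was 1 at a mean of at least 5 RPKM and 1 with limma voom, SLC7A6 in both, and 0 to 2 when 1 library was left out. For miR-217 mimic against mimic NC, the labels do not say that the number pairs libraries, and there are only 2 pairs (correlation of deviations 0.68). The replicate block gave 0 carriers at an adjusted p and 1 (SLC1A5, 0.22) at an unadjusted p, with 1046 genes at an unadjusted p compared with 165. The difference of SLC7A1 was 0.019 under centring, and that of SLC6A9 was -0.023 with limma voom. Leaving out 1 library makes the numbers unequal between the groups, and the mimic difference then ranged from -1.24 to 0.75 in SLC7A11, -0.43 to 0.15 in SLC7A5, -0.39 to 0.42 in SLC3A2, -0.40 to 0.38 in SLC7A1, -0.42 to 0.87 in SLC1A5, -0.38 to 0.51 in SLC1A4, -0.51 to 0.53 in SLC38A1, -0.23 to 0.25 in SLC38A2 and -0.33 to 0.39 in SLC6A9. Depth limits SLC43A1, SLC6A9 and SLC1A4 most.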
